A study of Mus musculus with 8 samples.

Results

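The transcription factors that keep hematopoietic stem cells self-renewing were examined here as a group of 9 genes: Mecom and Prdm16, Hlf, Meis1, Erg, Fli1 and Etv6, and Tal1 and Lyl1. They are 9 of the 47042 autosomal genes in the RefSeq table. The CpGs of each gene were those from 5 kb before to 5 kb after it, with the strands of a CpG added together, that had at least 10 reads in at least 3 mice of each group. This gave 1916 of the 1278034 autosomal CpGs that met the same read rule, and 1916 of the 7327 CpGs near these genes that were listed for any mouse. In mm10 the PR domain and bZIP genes are Mecom (chr3:29951296-30509759), Prdm16 (chr4:154316122-154637360) and Hlf (chr11:90336535-90390917). The homeodomain gene is Meis1 (chr11:18880428-19019651), the ETS genes are Erg (chr16:95359169-95586600), Fli1 (chr9:32422204-32543432) and Etv6 (chr6:134035700-134270158), and the helix-loop-helix genes are Tal1 (chr4:115056426-115071755) and Lyl1 (chr8:84701423-84704716). Prdm16 supplied 771 of the CpGs, and Hlf with 71 the fewest. Exons, introns and UTRs were not assigned.

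The methylation of stem cell DNA was read by enhanced reduced representation bisulfite sequencing, which sequences CpG-rich restriction fragments after bisulfite has turned unmethylated cytosine into thymine. Stem cells, gated as CD150+ and c-Kit+ and Sca-1+ but negative for CD48, Flk2 and lineage markers, came from the marrow of individual C57BL/6 mice and were not cultured. The 4 knockouts carried loxP-flanked Atg12 with Mx1-Cre, and the 4 controls are described in the design text as carrying the loxP-flanked alleles without Cre, whereas their genotype label reads WT. Mice of both groups received poly(I:C), the inducer of Mx1-Cre, at 4 weeks of age and were sampled 2 to 3 months later. Mx1-Cre is interferon-inducible and acts in many cell types besides stem cells, and the loss of Atg12, an autophagy gene, was not checked here.

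In adult marrow a small set of transcription factors holds stem cells in an undifferentiated, slowly dividing state, and loss of several of them exhausts the stem cell pool. DNA methylation at a CpG-rich gene start is usually absent where the gene can be used, while gene bodies are usually methylated. Long unmethylated stretches around the genes of developmental regulators are known from many cell types.

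Median coverage at the member CpGs covered in all 8 mice was 195 to 288 reads in knockout mice and 220 to 227 reads in control mice. The libraries differed in how well they covered methylated DNA. The ratio of median coverage at CpGs at 80% or more in every mouse to that at CpGs under 5% in every mouse was 0.360 to 0.593 in knockout mice and 0.288 to 0.755 in control mice. Chromosome Y supplied 0.0790% to 0.0901% of the listed cytosines in knockout mice and 0.0115% to 0.0183% in control mice. For chromosome X the shares were 1.83% to 1.93% in knockout mice and 2.42% to 2.54% in control mice. Genotype therefore cannot be told apart from Y or X content. The labels give no sex, so a difference of sex between the groups cannot be told apart from genotype either. Among genes listed as markers of the sorting gate, 3 of the 4 measured starts were under 5% methylated. These were Kit, Flt3 and Procr, of which Procr is not in the gate as described. Flt3 encodes Flk2, which the gate selects against, and its start was at 0.210% in knockout mice and 0.143% in control mice. The starts of Ly6a (Sca-1) and Slamf1 (CD150) were not measured. The start of Cd48, which the gate selects against, was at 27.1% ± 7.33 in knockout mice and 15.4% ± 5.37 in control mice over 3 CpGs (SD, n = 4 each; limma adjusted p = 0.805). Such levels do not measure the number of cells of a type.

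The promoter windows below, 250 bases before to 50 bases after a listed start, show how unlike the member starts are in CpG content. The sequences are from RefSeq (GRCm38.p6, the assembly known as mm10), and 12 such windows were listed for 8 of the members. They held 2 to 30 CG dinucleotides, against a median of 7 over 31396 autosomal promoter windows. The Mecom and Prdm16 windows are given because these related genes shared the longest stretch of any of the 66 pairs of member windows, with the shared bases in capitals. The Hlf window is given for its 30 CG dinucleotides, the most of any member, with the measured ones in capitals. The window of an internal Erg start is given as the poorest in CG, with none measured and therefore no capitals.
Mecom, chr3:30509710-30510009, minus strand: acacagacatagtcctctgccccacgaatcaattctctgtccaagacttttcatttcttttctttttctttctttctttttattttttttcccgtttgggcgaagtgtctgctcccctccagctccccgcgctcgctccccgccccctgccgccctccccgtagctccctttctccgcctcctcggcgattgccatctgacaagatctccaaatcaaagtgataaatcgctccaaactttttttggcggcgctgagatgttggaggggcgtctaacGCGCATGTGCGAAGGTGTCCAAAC
Prdm16, chr4:154636824-154637123, minus strand: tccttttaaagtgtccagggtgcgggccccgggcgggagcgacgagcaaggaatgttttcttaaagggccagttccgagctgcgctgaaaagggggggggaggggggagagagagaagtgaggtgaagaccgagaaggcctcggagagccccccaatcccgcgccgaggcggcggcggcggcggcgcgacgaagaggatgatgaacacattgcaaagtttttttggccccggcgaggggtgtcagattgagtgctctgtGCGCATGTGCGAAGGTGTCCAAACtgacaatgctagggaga
Hlf, chr11:90390868-90391167, minus strand: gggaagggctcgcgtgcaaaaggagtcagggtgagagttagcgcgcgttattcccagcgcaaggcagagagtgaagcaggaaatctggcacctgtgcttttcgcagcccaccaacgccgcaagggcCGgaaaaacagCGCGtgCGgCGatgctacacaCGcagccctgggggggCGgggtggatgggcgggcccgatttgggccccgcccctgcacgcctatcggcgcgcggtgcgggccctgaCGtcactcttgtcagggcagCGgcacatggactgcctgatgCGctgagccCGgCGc
Erg, chr16:95530316-95530615, minus strand: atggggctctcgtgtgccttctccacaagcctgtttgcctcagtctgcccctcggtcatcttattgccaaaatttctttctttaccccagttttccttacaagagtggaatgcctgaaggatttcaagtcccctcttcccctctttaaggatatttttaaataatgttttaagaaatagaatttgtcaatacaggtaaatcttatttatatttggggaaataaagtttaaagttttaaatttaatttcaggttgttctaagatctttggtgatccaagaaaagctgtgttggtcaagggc

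The shared stretch was 24 bases long and was held by 2 of the 31396 autosomal windows, those of Mecom and Prdm16. It contains 2 CG dinucleotides, and both were measured at Prdm16 while 0 were measured at Mecom. Of motifs bound by the members' families or their partners, the ETS letters CCGGAA were found on either strand in 3 of the 12 member windows and in 15.1% of all autosomal windows. The MEIS letters TGACAG were found in 2 of 12 and in 19.05% of all windows, and the E-box letters CAGCTG in 0 of 12 and in 16.3% of all. The GATA letters AGATAA were found in 2 of 12 and in 11.2% of all, and the PAR bZIP letters TTACGTAA in 0 of 12 and in 0.108% of all. All were searched on both strands.

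All 9 starts had little methylation in knockouts and in controls. The mean CpG level within 1 kb of the start was under 3% in each of the 8 mice at each member, and the means over the 8 mice ran from 0.0970% at Mecom to 1.27% at Erg, each CpG with the same weight. With CpGs weighted by their reads, the means ran from 0.114% at Tal1 to 1.39% at Fli1. Of 19032 autosomal gene starts measured, 72.2% were under 5%, and their median level was 0.519%. Because starts under 5% were left out of the fit across all gene starts, no member start was tested there.

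**Figure D1:**
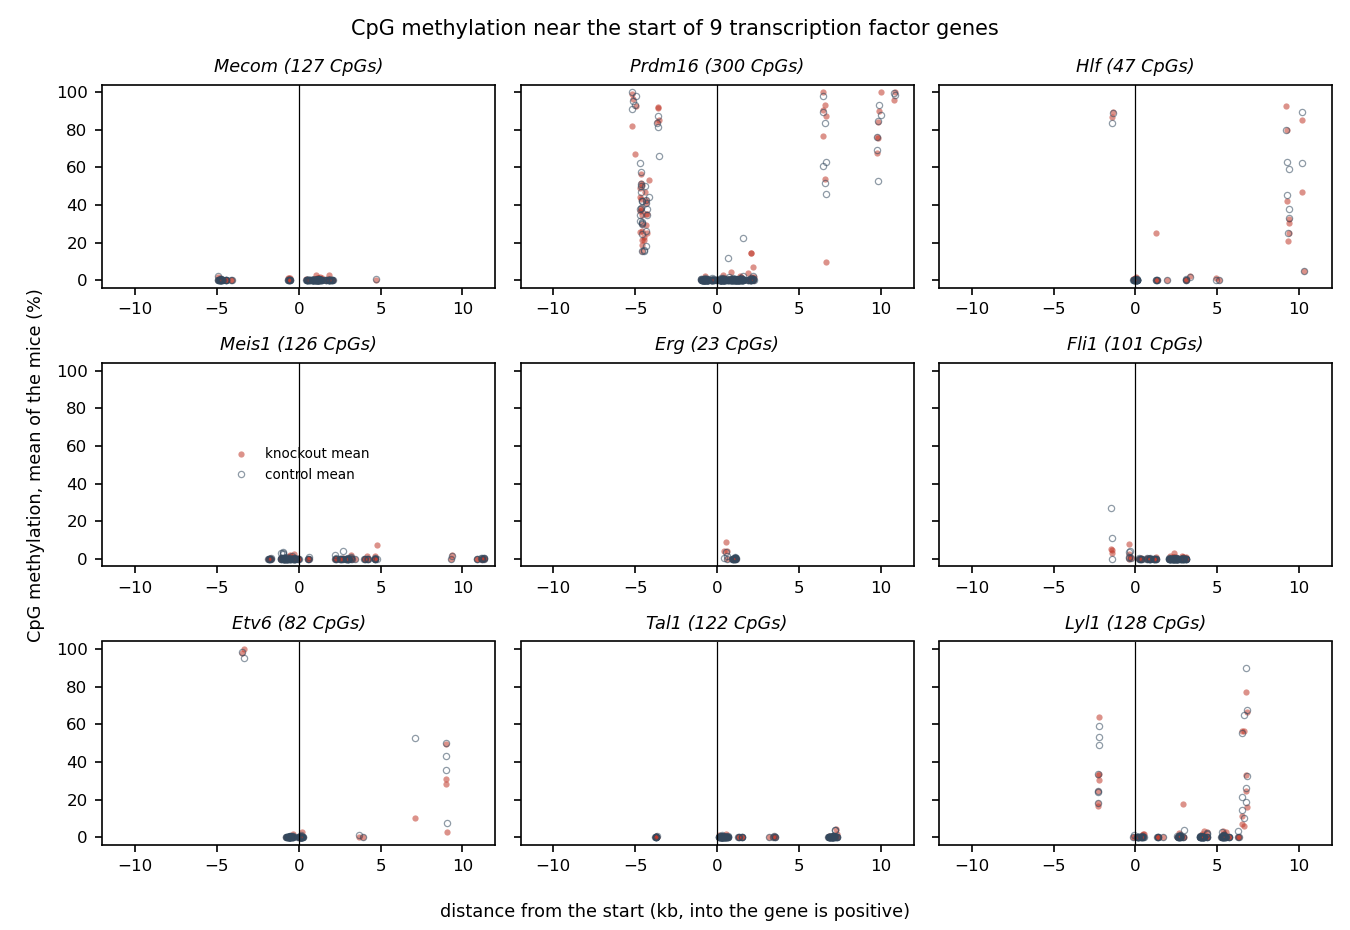
CpG methylation in percent against distance from the start in kb, within 12 kb of the start of each of the 9 genes. Filled points are means of the knockouts and open points means of the controls, and nearly all points within 1 kb of each start lie near 0% in both.

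Mecom encodes a zinc finger factor with a PR domain that long-term stem cells need. Its start, measured at 37 CpGs, was at 0.0827%, 0.338%, 0.161% and 0.101% in knockout mice, against 0.0400%, 0.00972%, 0.0331% and 0.0115% in control mice. It was the only one of 18 member levels, starts and remainders together, at which the groups did not overlap. The difference was 0.147 percentage points (exact two-sided permutation p = 0.0286, the smallest that 4 against 4 mice can give). Groups did not overlap at 2.82% of all gene starts measured, and the Mecom levels rest on 1 to 42 methylated reads among 7201 to 11194 reads per mouse. The internal start of Mecom, with 17 CpGs, averaged 0.123% ± 0.175 in knockout mice and 0.175% ± 0.192 in control mice (SD, n = 4 each).

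Erg, an ETS factor needed for stem cell maintenance, had a start measured at 9 CpGs, at 1.27% with equal weights and 0.530% weighted by reads. It was 2.92%, 2.80%, 0.0938% and 1.92% in knockout mice, against 0%, 0.0848%, 0.789% and 1.54% in control mice. Knockout 45 lay among the controls, and the groups overlapped (exact two-sided permutation p = 0.114). The other 7 starts had overlapping groups as well, with exact permutation p-values from 0.4 to 0.914.

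Averaged over the member CpGs, methylation within 10 kb of a start was below that of all autosomal CpGs, but not at every member. CpGs 1 to 2 kb from a listed start of their own gene averaged 1.43% over the members, against 27.5% over all autosomal CpGs at that distance from any listed start. At 2 to 5 kb the averages were 9.05% and 53.2%, and at 5 to 10 kb 24.1% and 67.6%. Erg went the other way, at 93.8% at 2 to 5 kb and 72.5% at 5 to 10 kb, as did Prdm16 at 5 to 10 kb with 78.0%. At 5 to 10 kb the member average rests largely on 44 CpGs of Tal1 at 0.262% and 42 CpGs of Lyl1 at 9.32%, among 131 CpGs. Beyond 50 kb the averages were 76.9% and 79.0%. These averages over CpGs are a description, since CpGs of a gene share its sequence and fragments.

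**Figure D2:**
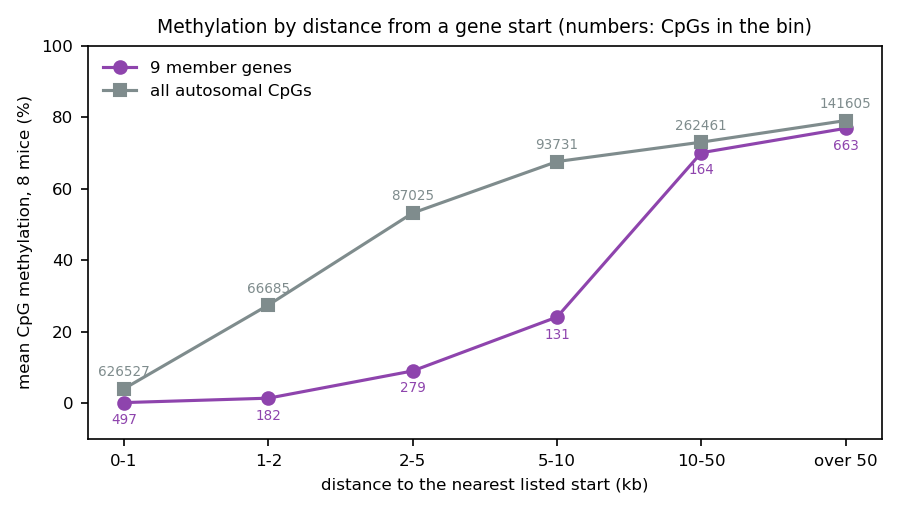
Mean CpG methylation of the 8 mice in percent against distance from the nearest listed start in kb, for the 9 member genes and for all autosomal CpGs, with the number of CpGs at each point. At 2 to 5 kb the members are at 9.05% and all autosomal CpGs at 53.2%.

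A low-methylated span was measured outward from the CpG nearest the start until 2 CpGs in a row reached 20% or more than 2 kb held no covered CpG. Over 11116 autosomal protein-coding genes the median span was 662 bp. Lyl1, a basic helix-loop-helix factor that shares functions with Tal1 in adult stem cells, had the longest member span at 6789 bp, longer than at 99.7% of those genes. The bodies of Trmt1 and Nfix also reach within 5 kb of Lyl1, so its CpGs are not those of Lyl1 alone. Meis1, a homeodomain cofactor of Hox proteins, had 6596 bp, longer than at 99.6%, and Hlf, a PAR bZIP factor enriched in stem cells, had 5204 bp, longer than at 99.2%. Fli1 had 4546 bp, Tal1 3436 bp, Prdm16 3229 bp and Mecom 2733 bp. Etv6 had 965 bp, longer than at 68.5% of the genes, and Erg had 694 bp, longer than at 52.3%. At 7 members both ends were set by a gap in coverage shared by all mice, and at Hlf and Lyl1 1 end was. A span can also cross up to 2 kb without a covered CpG, so its length and rank depend on coverage. With most ends set by shared gaps, the spans could hardly differ between mice.

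The spans therefore say little about knockouts against controls. At Meis1 the span was 6495 bp in knockout 46 and 6596 bp in the other 7 mice. At Lyl1 it was 6789 bp in all 4 knockouts, against 6501 bp in control 36 and 6789 bp in the other 3 controls. At the other 7 members the length was the same in all mice. The Hlf span depended on a few CpGs, since with a minimum of 20 reads it was 246 bp.

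Outside 1 kb of the start the members differed widely from each other, far more than the mice did. The remainder of a gene, meaning the gene with 5 kb to either side less the CpGs within 1 kb of the start, averaged from 80.3% ± 1.41 at Etv6 to 1.34% ± 0.271 at Meis1 (SD over 8 mice). The median over 24937 autosomal genes of all types, noncoding ones included, was 74.7%, and 8 of the 9 members lay under it. Low remainders were not particular to the members. Over 22 other stem cell transcription factors, described further below, the median remainder was 12.5%, and 8 of the 22 were under 5%. Etv6 was followed by Prdm16 at 59.9% ± 1.63, Erg at 55.9% ± 0.979, Hlf at 49.2% ± 4.71 and Mecom at 33.3% ± 0.689. Tal1 at 10.3% ± 0.353, Fli1 at 8.03% ± 0.635 and Lyl1 at 4.92% ± 0.903 came next. Prdm16 and Erg overlapped in range over the mice, as did Erg and Hlf, and the other neighbours in this order did not. A remainder keeps CpGs just beyond 1 kb and near internal starts, so its level also depends on where the covered CpGs lie. Beyond 50 kb from the nearest start of the same gene, CpGs averaged 97.4% at Fli1 (3 CpGs), 97.0% at Erg and 89.6% at Mecom. They averaged 81.1% at Etv6, 79.6% at Prdm16 and 8.52% at Meis1. The Meis1 value rests on 43 CpGs, and 37 of these form a low stretch in the flank past the far end of the gene. That stretch lies within 1 kb of the lncRNA gene 8430419K02Rik, so the value does not describe the Meis1 gene body.

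**Figure D3:**
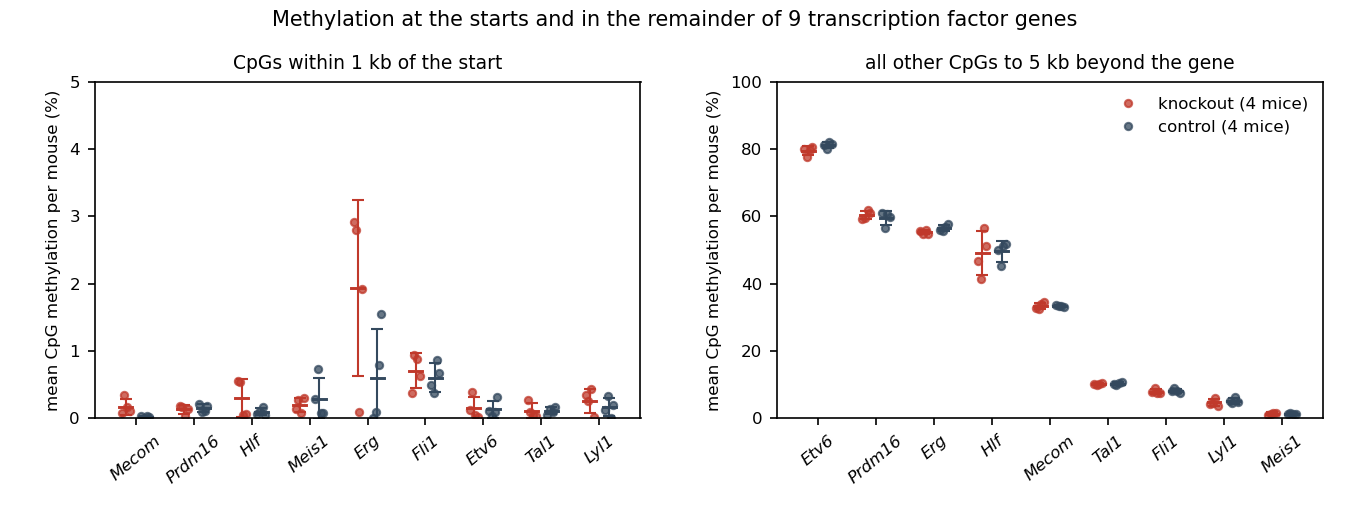
Mean CpG methylation per mouse in percent at the starts (left panel, axis to 5%) and in the remainders (right panel, axis to 100%) of the 9 genes, with knockouts left of controls and bars for mean and SD. The genes are spread from 1.34% to 80.3% in the right panel, while the knockouts and controls of each gene overlap.

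No member remainder passed the test between knockouts and controls. Of the 9 remainders, 7 were in the tested range of 5 to 95%, and 0 passed an adjusted p of 0.05 in limma, with a smallest adjusted p of 0.986. Over all 18079 remainders tested 0% passed, and 4.84% had an unadjusted p under 0.05, against 0 of the 7 members. Groups did not overlap at 2.89% of all remainders measured and at 0 of the 9 members. Etv6, an ETS repressor needed for stem cell survival in adult marrow, came nearest by the exact test. Its remainder was at 79.9%, 77.5%, 79.7% and 80.7% in knockout mice, against 81.2%, 79.98%, 82.1% and 81.4% in control mice. The groups overlapped, with a difference of -1.71 percentage points (exact two-sided permutation p = 0.0571; limma adjusted p = 0.986). With CpGs covered in at least 3 mice of each group the difference was 0.158.

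The Hlf remainder spread most between mice. It was at 46.6%, 41.3%, 56.6% and 51.2% in knockout mice, against 49.8%, 45.2%, 51.2% and 51.8% in control mice. Knockouts gave the lowest and the highest value of all 8 mice. Prdm16, a PR domain factor related to Mecom that maintains stem cells, averaged 60.3% ± 1.23 in knockout mice and 59.5% ± 2.06 in control mice (SD, n = 4 each). Mecom averaged 33.3% ± 1.02 in knockout mice, against 33.3% ± 0.266 in control mice.

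**Figure D4:**
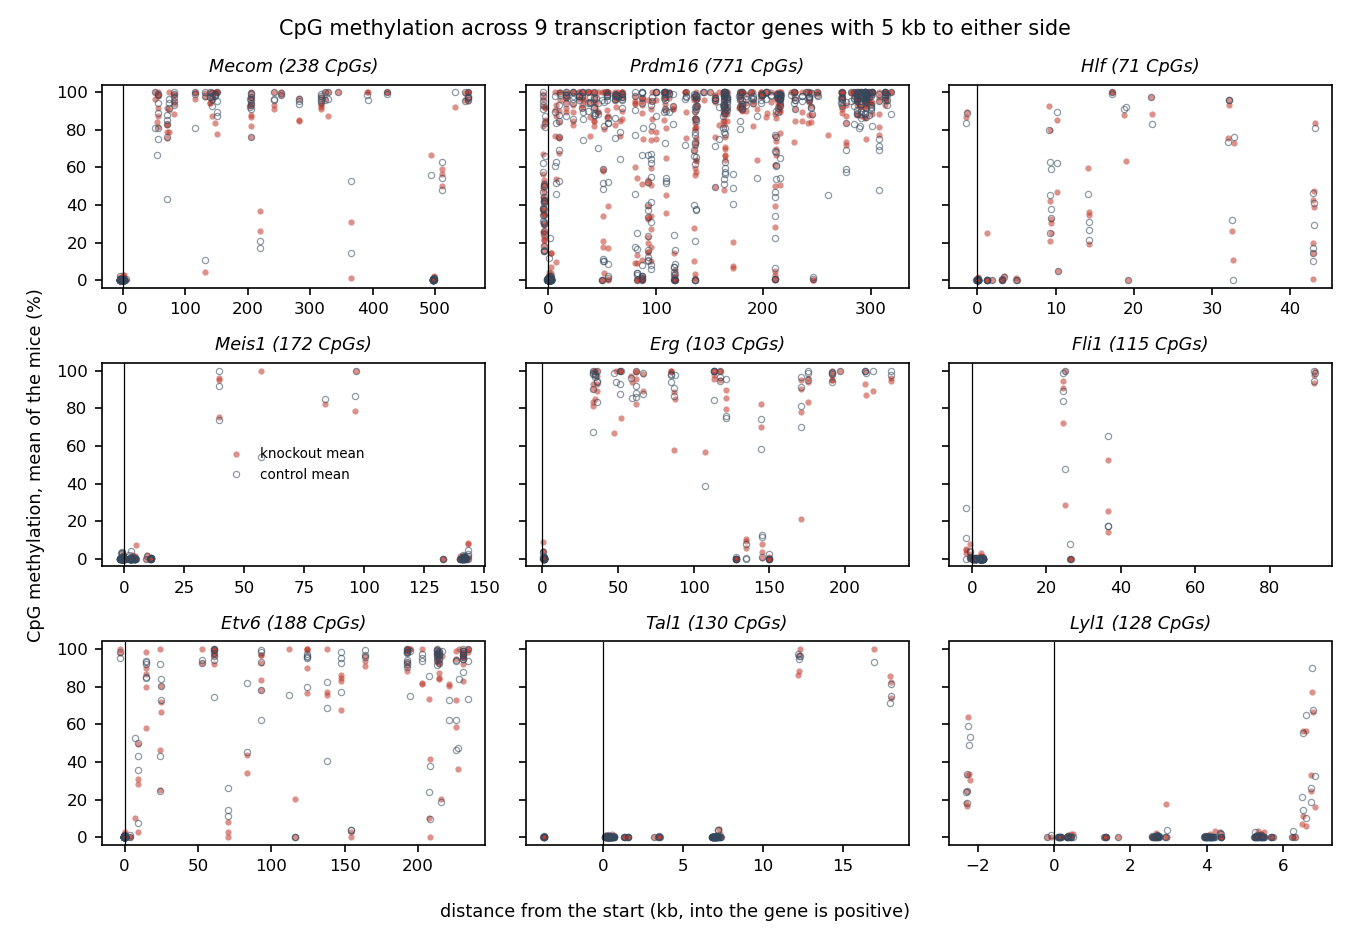
CpG methylation in percent against distance from the start in kb across each gene with 5 kb to either side, filled points for knockout means and open points for control means. Prdm16, Erg and Etv6 have many CpGs near 100% inside the gene, whereas most CpGs of Meis1, Tal1 and Lyl1 are near 0%.

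In windows of 1 kb, 139 were measured at the members and 57 were in the tested range. The level of a window was that of the reads summed over its CpGs, unlike the equal weights used for starts and remainders. None of the 57 passed an adjusted p of 0.05 in the moderated quasi-binomial model, with a smallest adjusted p of 0.684, and 0% of the 39903 windows tested over the autosomes passed. At an unadjusted p under 0.05 there were 4 member windows, 3 higher in knockout mice, all in Prdm16, and 1 lower, in Fli1. Over all windows 6.5% had such a p, with 2.1% higher and 4.4% lower. All 11 Meis1 windows were under 5%, so none was tested.

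The Fli1 window, 4 CpGs about 24.9 kb inside this ETS factor gene, had the smallest p. It was at 81.7%, 90.7%, 77.8% and 71.9% in knockout mice, against 89.2%, 97.1%, 90.1% and 88.5% in control mice. Knockout 28 lay above 3 of the controls, so the groups overlapped, and the difference of -10.7 percentage points had an adjusted p of 0.684 in the moderated quasi-binomial model. With equal weights for its CpGs the difference was -8.43 percentage points.

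A Prdm16 window of 6 CpGs at chr4:154328001-154329000, inside the gene, was the only one of the 57 without overlap. It was at 89.95%, 90.2%, 88.9% and 93.5% in knockout mice, against 85.5%, 70.5%, 83.4% and 73.5% in control mice. The difference was 12.4 percentage points, with an adjusted p of 0.723 in the moderated quasi-binomial model. With equal weights for its CpGs the difference was 13.6 percentage points. Groups did not overlap at 3.48% of all windows tested.

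The other Prdm16 windows with an unadjusted p under 0.05 were smaller differences. At 5 CpGs about 277 kb inside the gene the level was 80.3% ± 4.33 in knockout mice and 71.7% ± 5.63 in control mice (SD, n = 4 each). At 9 CpGs about 164 kb inside it was 80.1% ± 3.28 in knockout mice and 74.2% ± 3.71 in control mice. Of the 28 tested Prdm16 windows 18 were higher and 10 lower in knockout mice, with a median difference of 0.807 percentage points, against -0.264 over all windows.

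The window of smallest p in each other member had an adjusted p of 0.785 or more in the moderated quasi-binomial model, and the groups overlapped in all of them. The Lyl1 window, 4 CpGs about 7.04 kb from the start, was at 23.0%, 24.0%, 27.5% and 16.8% in knockout mice, against 32.6%, 34.4%, 32.0% and 23.6% in control mice. The Hlf window, 3 CpGs about 10.4 kb inside the gene, was at 62.0%, 40.3%, 55.3% and 53.1% in knockout mice, against 56.5%, 71.8%, 63.5% and 62.3% in control mice. The knockouts were lower on average in both, by -7.80 percentage points at Lyl1 and -10.9 at Hlf. With equal weights for the CpGs these differences were -7.55 at Lyl1 and -6.65 at Hlf. The Erg window was at 75.2%, 81.2%, 72.2% and 86.0% in knockout mice, against 79.3%, 94.5%, 87.7% and 100% in control mice. The Etv6 window was at 77.9%, 81.1%, 88.4% and 76.6% in knockout mice, against 95.2%, 69%, 86.4% and 92.0% in control mice. At Erg the difference was -11.7 percentage points, and only control 1 lay among the knockouts. At Etv6 knockouts and controls were interleaved. The Mecom window was at 94.5%, 95.6%, 92.2% and 90.7% in knockout mice, against 97.1%, 99.5%, 94.1% and 95.4% in control mice. The Tal1 window was at 88.1%, 70.9%, 81.3% and 81.1% in knockout mice, against 75.8%, 62.4%, 88.5% and 80.5% in control mice. Its difference of 3.53 percentage points was -1.27 without control 34. Of the other Prdm16 windows named by the rule, 1 was at 84.5%, 86.6%, 100% and 87.3% in knockout mice, against 65.8%, 78.5%, 85.0% and 84.4% in control mice. A second was at 97.6%, 100%, 76% and 91.6% in knockout mice, against 95.7%, 100%, 94.0% and 100% in control mice. Knockout 45 was the lowest mouse in it. A further window was at 92.6%, 95.1%, 92.3% and 77.6% in knockout mice, against 91.9%, 100%, 94.0% and 98.8% in control mice.

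**Figure D5:**
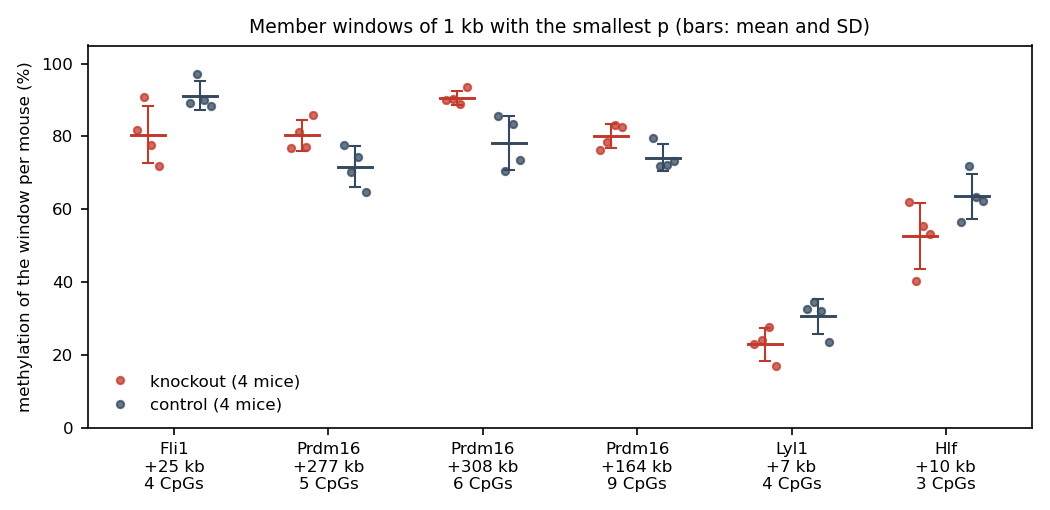
Methylation per mouse in percent of the 6 member windows of 1 kb with the smallest p, knockouts left of controls, with bars for mean and SD and the distance from the start under each gene. At the Prdm16 window at +308 kb the knockouts lie at 88.9% or more and the controls at 85.5% or less, and at the other 5 the groups overlap.

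Single CpGs were tested next. Of the 1916 CpGs, 482 were in the tested range, and 0 passed an adjusted p of 0.05, with a smallest adjusted p of 0.707. Over 313039 CpGs tested 0.00767% passed. At an unadjusted p under 0.05, 15 member CpGs were higher and 13 lower, against 2.4% higher and 4.12% lower over all CpGs tested.

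The member CpG of smallest p lay at position 95415737 of chromosome 16 in Erg. It was at 49.2%, 0%, 3.09% and 31.7% in knockout mice, against 82.7%, 100%, 68.7% and 73.9% in control mice, on 13 to 156 reads per mouse. The groups did not overlap, and the adjusted p was 0.707 in the moderated quasi-binomial model. The CpGs named here and below were picked for their small p, which favours groups without overlap. The share of all tested CpGs without overlap was not counted. A CpG of Etv6 at position 134105892 of chromosome 6 was at 0% in all 4 knockouts, against 10.3%, 12.9%, 12.8% and 21.9% in control mice, with an adjusted p of 0.738 in the same model.

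The remaining CpGs of smallest p were 3 in Prdm16 and 1 in Etv6, with adjusted p of 0.731 to 0.738 in the moderated quasi-binomial model. Prdm16 position 154341527 was at 94.1%, 89.7%, 44.4% and 72.1% in knockout mice, against 100%, 100%, 94.4% and 100% in control mice. Prdm16 position 154359684 was at 60.8%, 74.4%, 74.6% and 83.7% in knockout mice, against 61.4%, 57.0%, 59.7% and 53.0% in control mice. The groups did not overlap at the first of these, where knockouts were lower, and overlapped at the second. Prdm16 position 154347181 was at 100% in all 4 knockouts, against 81.8%, 72.6%, 70.1% and 100% in control mice. Etv6 position 134128788 was at 73.8%, 83.9%, 66.4% and 88.4% in knockout mice, against 60.3%, 100%, 45.8% and 42.7% in control mice.

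Stretches of at least 3 low CpGs more than 2 kb from any listed start were found 16 times, in 7 of the members. Tal1, a basic helix-loop-helix factor that specifies blood cells, had 38 CpGs about 7.03 kb inside the gene at 0.261% ± 0.244 in knockout mice and 0.320% ± 0.341 in control mice (SD, n = 4 each). Mecom had 25 CpGs before its start, centred at -4.73 kb, at 0.217% ± 0.256 in knockout mice and 0.205% ± 0.159 in control mice. At the far end of Meis1, within 1 kb of the lncRNA gene 8430419K02Rik, 37 CpGs were at 0.706% ± 0.472 in knockout mice and 0.549% ± 0.348 in control mice.

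The groups did not overlap at 2 of the 16 stretches, which were singled out after their values were seen. Over all 5841 autosomal stretches found the same way, the groups did not overlap at 2.74%. In Prdm16, 10 CpGs at chr4:154519364-154519945 were at 2.10%, 1.26%, 3.82% and 2.81% in knockout mice, against 10.2%, 4.998%, 10.6% and 4.03% in control mice. In Etv6, 3 CpGs that include the one named above were at 6.32%, 3.68%, 0.153% and 4.37% in knockout mice, against 17.2%, 14.5%, 19.1% and 18.99% in control mice. Neither has an adjusted p of its own.

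Among 22 other stem cell transcription factors, such as Gata2 and Runx1, 19 starts were measured and 16 of them were under 5%. Of their 22 remainders 14 were tested, 0 passed an adjusted p of 0.05 in limma, and that of Gfi1 had an unadjusted p under 0.05. The Gfi1 start, under 5% and so not tested in that fit, was at 0.0851% ± 0.0203 in knockout mice and 0.614% ± 0.158 in control mice without overlap (SD, n = 4 each; exact two-sided permutation p = 0.0286). It was singled out from the 19 measured starts after its values were seen. Of all gene starts measured, 2.82% were without overlap. In the lists for the sorting gate, B cells, T cells, neutrophils and monocytes, erythroid cells and megakaryocytes, 0 of the 4 starts and 0 of the 22 remainders tested passed. No start was tested for T cells or for neutrophils and monocytes. An unadjusted limma p under 0.05 was reached by the Cd48 start and by the Ctsg remainder. Over the autosomes 237 of 4099 starts and 4.84% of remainders tested had such a p. The Ctsg remainder, on 3 CpGs, was at 86.0% ± 4.53 in knockout mice and 94.7% ± 4.05 in control mice (SD, n = 4 each). Its limma adjusted p was 0.986.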

How the data were processed

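DNA methylation was measured in 8 mice, each a separate library. Per the file headers, the authors' tables give the coverage of each cytosine as a count of reads and its C and T calls in percent, with no cytosine under 10 reads. CASAVA 1.8.2, Bismark and the mm10 build are named, per the submitters' processing notes; the handling of duplicate reads is not given there. Methylated reads were coverage times percent, rounded, and strands were added. Reads carried no stated molecular identifiers and can repeat a molecule, so depth overstates precision.

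Features with a mean level of 5 to 95% over the mice were tested across all autosomes. CpGs and 1 kb windows with at least 3 CpGs were tested by a logistic model with quasi-binomial dispersion moderated across features (squeezeVar, limma 3.58.1, R 4.3.3), and gene starts and remainders by limma with trend on mean CpG levels, all with Benjamini-Hochberg adjustment. Windows, starts, remainders and spans used CpGs covered in all 8 mice. Single values were compared by exact two-sided permutation over 70 arrangements. Starts came from the RefSeq promoter table for 25748 of the 47042 autosomal genes, 8 of the members included. For the other 21294, Fli1 among them, the end of the gene with more listed CpGs within 1 kb was taken. The values over all gene starts and remainders include both kinds. Named windows were that of smallest p in each member and the 5 of smallest p on either side, and named CpGs the 3 of smallest p on either side. The members and lists, those of marker genes included, were chosen with earlier results of these data known. Alternatives were coverage, filters, window size, model and leaving out mice.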

Additional observations from a re-analysis of the deposited data

Results flagged for a closer look

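In 5 of 92 groups of 4 mice checked, a single mouse lay far from the other 3, and chance alone flags about 1 in 20 groups of untied values. The 92 include groups with 4 equal values, most span groups among them, which cannot be flagged, so these shares are not comparable. In 3 of the 5 the other mice were tied, so that any deviation is flagged. In the Prdm16 window 164 kb inside the gene, control 1 was at 79.7% and the other controls at 71.9% to 73.2%. In the Prdm16 window that starts at position 154446001 of chromosome 4, knockout 46 was at 77.6% and the other knockouts at 92.3% to 95.1%. At the Prdm16 CpG at position 154341527, control 36 was at 94.4% and the other controls at 100%. The Meis1 span was 6495 bp in knockout 46 and 6596 bp in the other knockouts, and the Lyl1 span was 6501 bp in control 36 and 6789 bp in the other controls.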

How the results depend on the processing

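No member CpG, window or remainder passed an adjusted p of 0.05 under any alternative run. Member starts were tested only without the filter on level, where 0 of 9 passed (smallest limma adjusted p = 0.933). The count over all autosomal CpGs, 24, was 40 with a minimum of 20 reads, 1 with an upper limit on coverage, 0 without the filter on level, 0 with limma on log2 ratios, 4 without knockout 25 and control 34 together, and 0 to 172 with 1 mouse left out, the highest without knockout 45. The count of windows, 0, was 0 to 29 with 1 mouse left out, 29 without control 34 and 11 without knockout 45, and 5 without knockout 25 and control 34. The count of starts, 0, was 0 to 1 with 1 mouse left out and 1 with the quasi-binomial model, and that of remainders, 0, was 0 to 2. The count of member levels without overlap, 1, was 2 without knockout 25 and control 34 and 1 to 3 with 1 mouse left out. The cause of these changes was not tested.

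Small differences in percentage points changed sign. With a minimum of 20 reads the remainders differed by -0.223 at Mecom, 0.0330 at Hlf and 0.121 at Erg. With CpGs covered in 3 mice of each group they differed by 0.158 at Etv6 and 0.303 at Tal1. Weighted by reads they differed by -1.91 at Mecom, -2.86 at Prdm16 and 1.49 at Tal1. Without knockout 25 and control 34 the difference was 0.0276 at the Fli1 remainder and -3.85 at the Tal1 window of position 115074001. With 1 mouse left out the differences ran from -1.27 to 7.42 at the Tal1 window of position 115074001, -0.363 to 0.332 at the Mecom remainder, -0.171 to 1.33 at the Prdm16 remainder, -3.15 to 1.95 at the Hlf remainder and -0.206 to 0.106 at the Tal1 remainder.

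No paired analysis was possible because the mouse numbers are not shared between the groups. Spans gave 0 members without overlap under the alternatives run, but shared gaps in coverage set most of their ends. Coverage limits what single CpGs can show, since some had 10 reads in a mouse.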
